A study of Bos taurus with 4 samples.

Results

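The genes described here make up the p53 stress response and the apoptosis machinery that it feeds. The set was a list of 37 gene symbols, and each was matched to the gene symbols of the array's platform annotation. Of these 37 genes, 32 had at least 1 probe, 48 probes in all of the 43794 on the array. The brightest testable probe stood for each gene, and 28 genes had 1, among 12135 genes tested in all. No measured difference between the ages was used to pick the genes, though earlier results of these data were known when the list was drawn up. BBC3, PMAIP1, BIK, BIRC2 and TNFRSF10D had no probe under these symbols and are not analysed here. BAD, BCL2, CASP8 and CFLAR had probes, but these were too dim to test.

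The question was if a young bull's age shows in the RNA of the embryos it sires. Bovine blastocysts were made by in vitro fertilisation of oocytes from slaughterhouse ovaries, and the embryos differed by the age of the sire, 12 or 16 months, when semen was collected. The series names 4 bulls, each sampled at both ages. Each of 4 two-colour arrays held amplified RNA of both ages, with the 12-month RNA in Cy5 (red) on arrays 1 and 2 and in Cy3 (green) on arrays 3 and 4. The labels call the arrays biological replicates, yet they tie no bull to an array and give no number of embryos per RNA. The labels name no treatment of the embryos and no genetic change in either age group. Since whole embryos were measured, fewer cells of a type and less RNA per cell cannot be told apart.

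p53 is a transcription factor that MDM2 and MDM4 hold in check and that DNA damage and other stress release. Its targets include genes that halt the cell cycle or repair damage, such as CDKN1A, GADD45A, SESN1 and SESN2, and genes that start apoptosis. In the mitochondrial route, BH3-only proteins set off the pore formers BAX and BAK1 unless BCL2-type guards hold them back, and factors that leak out of mitochondria then build the apoptosome and activate caspases. Death receptors such as FAS reach the caspases from the cell surface. In blastocysts some cells normally die, in the inner cell mass above all, and embryos made in vitro are known for more of it.

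Values are log2 ratios of 12 over 16 months, with the sign turned on arrays 3 and 4, so values above 0 mean more signal with 12-month semen. An SD over arrays is taken from these ratios, so it also holds any difference between the dyes. limma (a linear model of age and dye, Benjamini-Hochberg adjustment over all probes) called 0 of 30986 probes at an adjusted p of 0.05, a share of 0.0%, and 1277 probes had an unadjusted p under 0.05. In Cy5, 69.5% to 72.4% of probes were above the negative control spots, and in Cy3 63.3% to 66.6%. Array 3 had the widest spread of ratios, with an SD of 0.40 over tested probes against 0.29 to 0.31 on the others. All channels were above background for 9 of 10 trophectoderm genes, for 5 of 5 inner cell mass genes and for 4 of 4 primitive endoderm genes with a probe. The same held for 2 of 8 oocyte genes, 2 of 8 cumulus and granulosa genes and 2 of 7 sperm genes, and the oocyte genes GDF9 and ZAR1 and the granulosa genes AMH and HAS2 were above it in no channel. The trophectoderm genes' summed ratio was 0.49, 0.58, -0.83 and -0.47 on arrays 1 to 4, which is the order of the dyes and not of the ages. That order holds for the sum, in which bright genes weigh most, and not for the list gene by gene. Only KRT8, the brightest of the list on average, and GATA2 split that way on all 4 arrays. CDX2, GATA3 and TFAP2C had both signs within each dye orientation. The primitive endoderm sum, at 0.69, 0.90, -0.53 and -0.81, and the oocyte sum, at 0.85, 0.12, -0.34 and -0.50, also turned with the dyes. FN1 and KPNA7, the brightest genes of those lists, split the same way. Over the remaining lists the summed ratio spanned -0.70 to 0.46 for inner cell mass, -0.26 to 0.056 for cumulus and granulosa, and -0.13 to 0.29 for sperm. The part of these cell types in the results on the p53 and apoptosis genes was not tested.

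No p53 or apoptosis gene passed the test between the ages. Of the 28 tested genes, 14 had a ratio above 0 and 14 below, with a median of -0.0053 beside 0.0012 over all 12135 tested genes. The smallest adjusted p among them was 0.969 (limma). At an unadjusted p under 0.05 there was 1 gene above 0, APAF1, and 1 below, BID. Over all genes tested those shares were 2.25% above and 2.06% below. The ratios ran from -0.34 to 0.37, and 0 genes differed by more than 1.5-fold. The median size of the ratio was 0.12, against 0.098 over all genes.

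How tight these values are can be read from the confidence intervals. In these, limma draws the variance of each gene towards that typical of all tested probes. The median half-width of the 95% interval was 0.29 on the log2 scale, and for 22 of 28 genes the whole interval lay inside a 1.5-fold difference in either direction. Over all tested genes that share was 90.7%. The 6 genes whose interval reached past 1.5-fold were MDM4, CDKN1A, GADD45B, APAF1, BID and HTRA2.

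**Figure D1:**
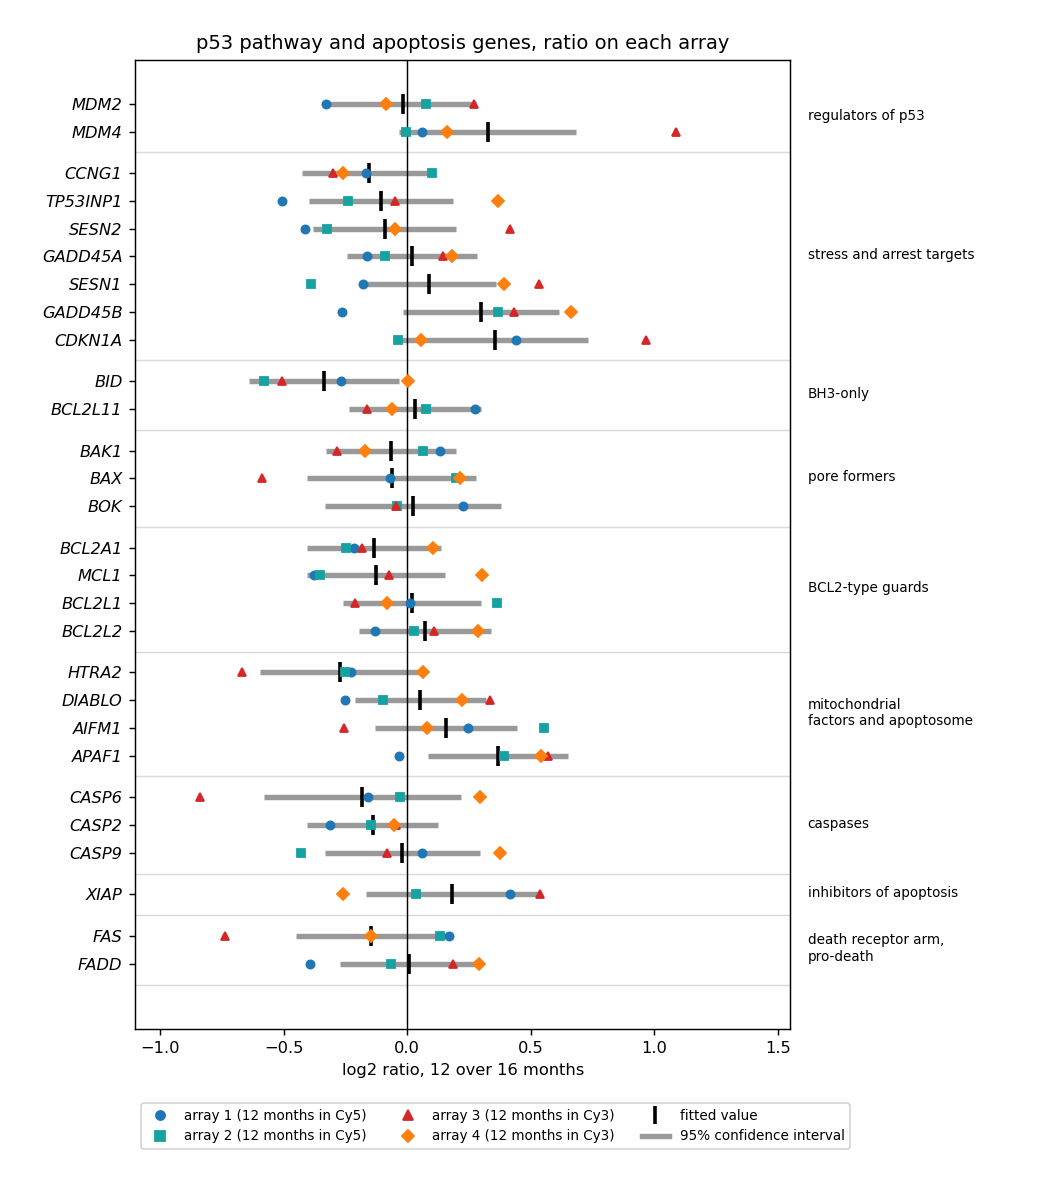
Log2 ratio of 12 over 16 months (x axis) of each of the 28 tested genes, grouped by role, with a symbol for each of the 4 arrays, a tick for the fitted value and a grey bar for its 95% confidence interval. Only the bars of APAF1 and BID leave out 0, and MDM4 has 1 symbol, array 3 at 1.09, far from the other 3.

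Of the regulators of p53, MDM2 had a mean close to 0 and MDM4 a mean above it that rested on array 3. MDM2, the ubiquitin ligase that marks p53 for destruction and is itself a p53 target, had log2 ratios of -0.33, 0.077, 0.27 and -0.086 on arrays 1 to 4 and a mean of -0.017 ± 0.25 (SD, n = 4). Arrays 1 and 4 were below 0, arrays 2 and 3 above, and the 95% interval of -0.31 to 0.28 lay inside 1.5-fold. MDM4, its partner that blocks p53's activation domain, had log2 intensities of 7.87, 8.002, 8.73 and 7.90 with 12-month semen and 7.81, 8.01, 7.64 and 7.73 with 16-month semen on arrays 1 to 4. The ages overlapped, and only on array 3 was the 12-month value well above the rest. The MDM4 ratios were 0.059, -0.0052, 1.09 and 0.16, with a mean of 0.33 ± 0.51 and an adjusted p of 0.969 in limma. Without array 3 the fitted ratio was 0.095, and without array 4 it was 0.56.

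Among the 7 stress and arrest targets, 4 had a ratio above 0 and 3 below, with a median of 0.019 and 0 at an unadjusted p under 0.05 in limma. CDKN1A encodes p21, the inhibitor of cyclin-dependent kinases through which p53 halts the cell cycle. Its log2 intensity was 11.79, 10.07, 11.77 and 10.56 with 12-month semen and 11.35, 10.11, 10.81 and 10.50 with 16-month semen. Arrays 1 and 3 carried the difference, arrays 2 and 4 were close to even, and the ages overlapped across arrays. The ratios of CDKN1A were 0.44, -0.038, 0.97 and 0.055, a mean of 0.36 ± 0.46 or 1.28-fold, with a 95% interval of -0.021 to 0.73 and an adjusted p of 0.969 (limma). The fitted ratio of CDKN1A was 0.13 without array 3 and 0.58 without array 4.

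GADD45B, a stress sensor that feeds p38 and JNK signalling, had ratios of -0.26, 0.37, 0.43 and 0.66, with a mean of 0.30 ± 0.40 (SD, n = 4). Arrays 2 to 4 were above 0 and array 1 was below. The fitted value of GADD45B was 0.14 without array 2 and 0.46 without array 1. Its relative GADD45A, a p53 target of growth arrest and repair, averaged 0.019 ± 0.17, with ratios below 0 on arrays 1 and 2 and above on arrays 3 and 4. SESN1, a sestrin that restrains mTORC1 signalling under stress, had the same split, with -0.18, -0.39, 0.53 and 0.39 and a mean of 0.089 ± 0.44. SESN2, the stress-induced sestrin, averaged -0.092 ± 0.37. The means of all 3 were smaller than their SD over arrays, which also holds any dye difference, and all 3 intervals in limma included 0.

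CCNG1 encodes cyclin G1, a p53 target that recruits a phosphatase to MDM2. Its ratios of -0.17, 0.10, -0.30 and -0.26 gave a mean of -0.16 ± 0.18, with array 2 above 0 and the other 3 below. TP53INP1, a nuclear stress protein that promotes p53 phosphorylation, had ratios of -0.51, -0.24, -0.047 and 0.37 and a mean of -0.11 ± 0.37. Array 4 was above 0 and the others below, and the SD exceeded the mean.

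The median ratio of the targets was -0.18, -0.088, 0.42 and 0.18 on arrays 1 to 4, and 1, 2, 5 and 5 of the 7 genes were above 0. The sign of the median went with the dye orientation, though of the single genes only GADD45A and SESN1 split that way on all 4 arrays. The dye coefficient of the model, which measures the log2 excess of Cy5 over Cy3 at equal age, was below 0 in 6 of the 7 genes, with a median of -0.25, while CCNG1 was the exception at 0.12. Over all tested genes it was below 0 in 47.1%, with a median of 0.011.

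Of the BH3-only genes, which sense damage and trigger the pore formers, BID and BCL2L11 could be tested. BID, which is cleaved by caspases downstream of death receptors and links them to mitochondria, had log2 intensities of 10.24, 10.46, 9.55 and 10.44 with 12-month semen and 10.51, 11.04, 10.05 and 10.43 with 16-month semen. The 12-month value was the lower on arrays 1 to 3 and equal on array 4, and the ages overlapped across arrays. BID ratios were -0.27, -0.58, -0.50 and 0.0016, a mean of -0.34 ± 0.26 or 0.791-fold, with a 95% interval of -0.64 to -0.034, an unadjusted p of 0.033 and an adjusted p of 0.969 in limma. From the mean over pixels in place of the median, the BID value was -0.044, and without array 3 it was -0.21. BCL2L11, which encodes BIM, averaged 0.031 ± 0.19, above 0 on arrays 1 and 2 and below on arrays 3 and 4. With 16-month semen BCL2L11 was above background on 3 of 4 arrays. Its 16-month signal on array 1 was 6.76, below that array's lowest detected 16-month signal of 6.89. BAD was above background in 0 of 8 channel signals.

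The pore formers perforate the outer mitochondrial membrane. BAX, which moves there from the cytosol, had log2 intensities of 8.07, 8.44, 7.44 and 8.30 with 12-month semen and 8.14, 8.25, 8.03 and 8.09 with 16-month semen. The lowest value of all was that of the 12-month RNA on array 3, and the ages otherwise overlapped. BAX ratios were -0.071, 0.20, -0.59 and 0.21, with a mean of -0.063 ± 0.37. Array 3 lay farthest from 0, and the fitted value was 0.14 without it.

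BAK1, which sits in the membrane from the start, had ratios of 0.13, 0.064, -0.28 and -0.17 and a mean of -0.065 ± 0.20. Arrays 1 and 2 were above 0 and arrays 3 and 4 below. With 12-month semen BAK1 was above background on 3 of 4 arrays. Its 12-month signal on array 3 was 6.92, below that array's lowest detected 12-month signal of 6.95. BOK, a relative whose activity does not need BH3-only proteins, was measured on 3 arrays because its spot on array 4 was marked as ignored and removed. Its ratios on arrays 1 to 3 were 0.23, -0.042 and -0.046, with a mean of 0.047 ± 0.16 (SD, n = 3), and the fitted value with the dye coefficient was 0.024. Array 1 was above 0 and both others were close to it.

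The guards bind pore formers and BH3-only proteins and keep mitochondria intact. Of the 4 that could be tested, 2 had a ratio above 0 and 2 below. MCL1, a short-lived guard needed by early embryos in the mouse, had log2 intensities of 11.81, 11.95, 12.04 and 12.32 with 12-month semen and 12.18, 12.30, 12.11 and 12.02 with 16-month semen. The 12-month value was lower on arrays 1 to 3 and higher on array 4. The MCL1 ratios were -0.38, -0.35, -0.075 and 0.30, with a mean of -0.13 ± 0.32.

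BCL2L1, which encodes the guard BCL-XL along with a shorter pro-death form, had ratios of 0.012, 0.36, -0.21 and -0.082 and a mean of 0.02 ± 0.25. Array 2 stood above the other 3, and the platform annotation does not say which form the probe reads. BCL2L2, which encodes BCL-W, had ratios of -0.13, 0.028, 0.11 and 0.29 and a mean of 0.073 ± 0.17. Array 4 was highest and array 1 alone was below 0. BCL2A1, an inducible guard best known from blood cells, was above background on 3 of 4 arrays at each age, with ratios of -0.22, -0.25, -0.18 and 0.11 and a mean of -0.13 ± 0.16. Arrays 1 to 3 were below 0. BCL2 itself was above background on 1 array with 12-month semen and on 2 with 16-month semen, and its normalised ratios of -0.23, -0.23, 0.0034 and 0.20 came from signal near background.

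**Figure D2:**
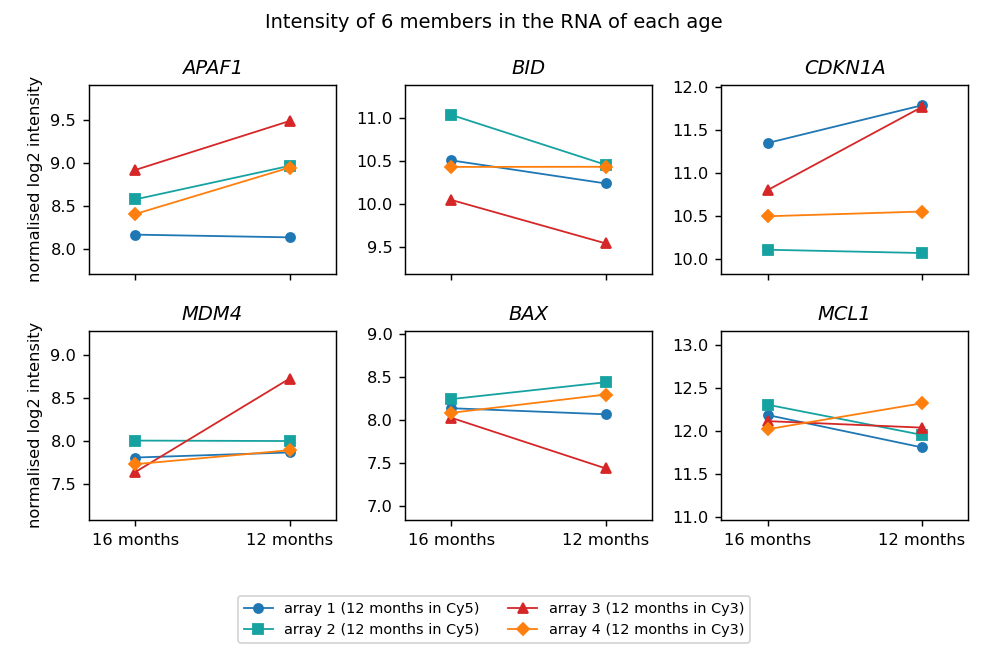
Normalised log2 intensity (y axis) of APAF1, BID, CDKN1A, MDM4, BAX and MCL1 in the RNA of 16- and 12-month semen (x axis), with a line for each of the 4 arrays. Lines of a gene run in different directions or at different slopes, as for MDM4, where array 3 climbs by 1.09 while the other 3 arrays stay within 0.16 of even.

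Among the factors that act once mitochondria are breached, APAF1 had the largest ratio of all 28 genes. APAF1 binds released cytochrome c and assembles the apoptosome that activates caspase-9. Its log2 intensities were 8.14, 8.97, 9.49 and 8.95 with 12-month semen and 8.17, 8.58, 8.92 and 8.41 with 16-month semen. The 12-month value was higher on arrays 2 to 4 and about even on array 1, though the ages overlapped across arrays. The APAF1 ratios were -0.031, 0.39, 0.57 and 0.54, a mean of 0.37 ± 0.28 or 1.29-fold, with a 95% interval of 0.084 to 0.65. The unadjusted p was 0.017 and the adjusted p 0.969 in limma.

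HTRA2, a protease that is freed from mitochondria and blocks inhibitors of apoptosis, had ratios of -0.23, -0.25, -0.67 and 0.063 and a mean of -0.27 ± 0.30. Arrays 1 to 3 were below 0, array 3 farthest, and array 4 was just above. The fitted value of HTRA2 was -0.088 without array 3 and -0.45 without array 4. DIABLO, which encodes the other such antagonist, SMAC, averaged 0.052 ± 0.27, below 0 on arrays 1 and 2 and above on arrays 3 and 4. AIFM1, a flavoprotein of mitochondria that can carry death signals to the nucleus, had ratios of 0.25, 0.55, -0.26 and 0.08 and a mean of 0.16 ± 0.34. Array 3 was the only 1 below 0.

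By their brightest probes the 3 caspases that could be tested had means below 0, none with an unadjusted p under 0.05 in limma. Of all 12135 tested genes, 6023 had a ratio below 0. CASP2, an initiator linked to p53 through the PIDD1 complex, had log2 intensities of 6.70, 7.03, 6.90 and 6.88 with 12-month semen and 7.01, 7.17, 6.95 and 6.94 with 16-month semen. The 12-month RNA was above background on 1 array of 4 and the 16-month RNA on 4 of 4, at signals close to the background level. CASP2 ratios were -0.31, -0.15, -0.044 and -0.055, with a mean of -0.14 ± 0.12, a 95% interval of -0.40 to 0.12 and an adjusted p of 0.969 in limma. Of the 27 genes measured on 4 arrays, CASP2 alone was below 0 on all of them, and 0 genes were above 0 on all. CASP2 met the brightness filter mainly through the 16-month signals, so its 12-month level is close to a bound and nothing is read from its constant sign. Over all genes measured on 4 arrays, 5.53% were below 0 on all 4 and 4.64% above. CASP6, an effector caspase, averaged -0.18 ± 0.48, with array 3 at -0.84 and array 4 at 0.30. CASP9, the caspase of the apoptosome, averaged -0.019 ± 0.34, while its next brightest probe averaged 0.13 ± 0.33. CASP8, the initiator of the death receptor route, was above background in 0 of 8 channel signals.

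XIAP, which binds and inhibits caspases directly, had ratios of 0.41, 0.037, 0.54 and -0.26 and a mean of 0.18 ± 0.36. Arrays 1 and 3 were high, array 2 was even and array 4 was below 0. In the death receptor arm, FAS, the receptor for FAS ligand, had ratios of 0.17, 0.13, -0.74 and -0.15 and a mean of -0.15 ± 0.42. Arrays 1 and 2 were above 0 and arrays 3 and 4 below, and the fitted value was 0.0021 without array 3. FADD, the adaptor that brings caspase-8 to the receptor, averaged 0.006 ± 0.30 with the opposite split. CFLAR, a decoy of caspase-8, was above background on at most 2 of 4 arrays at either age.

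Set against each other, the genes that promote death and those that oppose it did not separate. Of 14 pro-death genes, which are the BH3-only genes, pore formers, mitochondrial factors, caspases, FAS and FADD, 6 had a ratio above 0 and 8 below, with a median of -0.041. Those 8 include CASP2, whose sign is not independent of the brightness filter. Of 5 pro-survival genes, the 4 guards and XIAP, 3 were above 0 and 2 below, with a median of 0.020. On arrays 1 to 4 the pro-death median was -0.051, -0.035, -0.21 and 0.08 and the pro-survival median -0.13, 0.028, -0.075 and 0.11. The difference, pro-death minus pro-survival, was 0.080, -0.063, -0.13 and -0.026, a mean of -0.036 ± 0.089 (SD, n = 4). It was below 0 on 3 of 4 arrays and smaller on average than its spread over arrays. Taken from the fitted values it was -0.061, and it was -0.15 without array 1 and 0.061 without array 3.

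**Figure D3:**
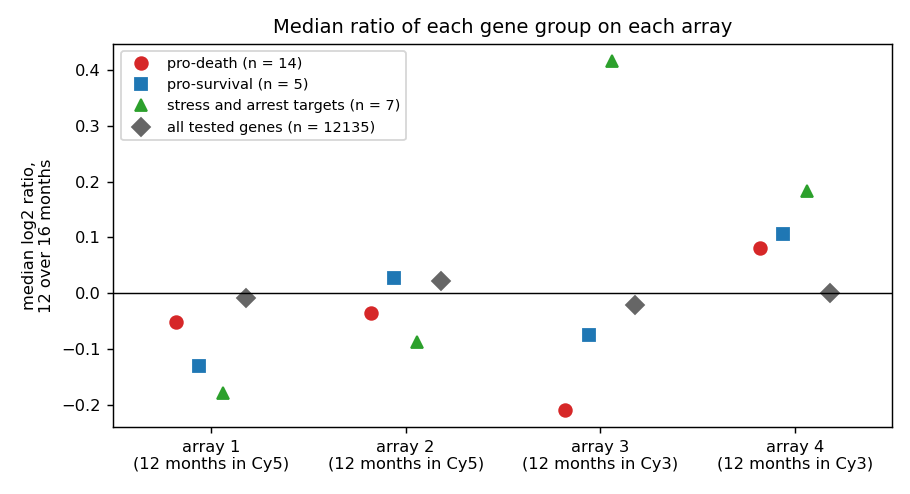
Median log2 ratio of 12 over 16 months (y axis) on each array (x axis) of the 14 pro-death genes, the 5 pro-survival genes, the 7 stress and arrest targets and all 12135 tested genes. The targets lie below 0 on arrays 1 and 2 and above 0 on arrays 3 and 4, where the dyes were exchanged, while the pro-death median is above the pro-survival median on array 1 and below it on arrays 2 to 4.

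Pairs of a pore former and the guard that binds it gave the same picture. BAX minus BCL2L1 was -0.083, -0.17, -0.38 and 0.29 on arrays 1 to 4, a mean of -0.083 ± 0.28. BAK1 minus MCL1 was 0.51, 0.42, -0.21 and -0.47, a mean of 0.061 ± 0.48, and its sign turned with the dyes. BAX minus MCL1 was 0.31, 0.55, -0.51 and -0.089, a mean of 0.063 ± 0.46, with the same turn. All 3 means were smaller than their SD, which also holds any dye difference. These are differences of ratios, so they compare changes and not levels of the genes.

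**Figure D4:**
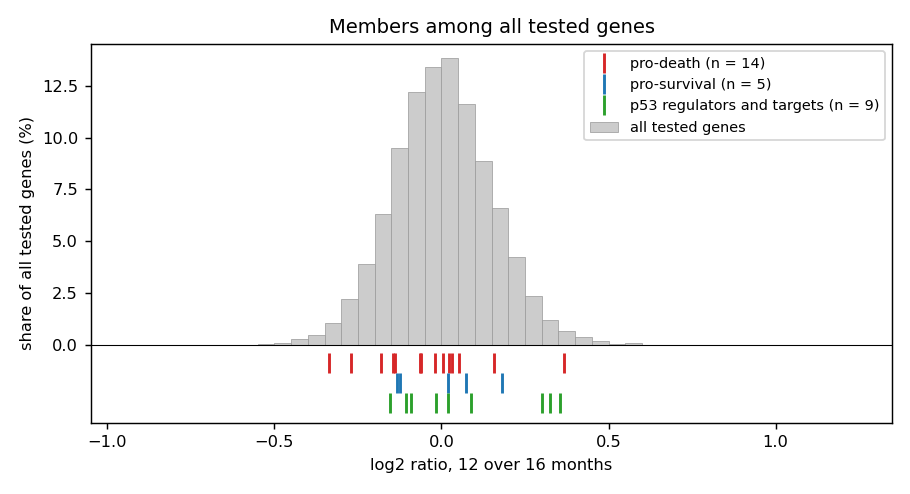
Share of all 12135 tested genes (y axis, %) in bins of the fitted log2 ratio of 12 over 16 months (x axis), with ticks under the histogram for the 14 pro-death genes, the 5 pro-survival genes and the 9 p53 regulators and targets. The ticks of all 3 groups fall on both sides of 0, from BID at -0.34 to APAF1 at 0.37.

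Within the range of all tested genes, BID lay low and APAF1, CDKN1A, MDM4 and GADD45B lay high. The ratio of BID was above that of 1.26% of all genes, that of HTRA2 above 3.16%. APAF1 was above 98.6% of all genes, CDKN1A above 98.4%, MDM4 above 97.8% and GADD45B above 97.1%. The other 22 genes fell between 10.5% for CASP6 and 88.5% for XIAP.

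Several probes of a gene gave a check within the array, and 10 genes had 2 or 3 that could be tested. In 6 of them the probes disagreed on the sign and in 4 they had 1 sign, with a median gap of 0.13 between the highest and lowest ratio. SESN1 had the widest gap, 0.48. Its next brightest probe averaged 0.10 ± 0.27 and another -0.38 ± 0.50, the latter with ratios of 0.055, -0.29, -0.19 and -1.09 on arrays 1 to 4, against 0.089 ± 0.44 for the brightest. Array 4 held the farthest value of that last probe.

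MCL1 had 3 probes, at -0.13, -0.24 and 0.0092, and array 1 was the lowest for the first 2 of them. BCL2L1 also had 3, at 0.020, 0.12 and 0.14, of which the last rested on array 1 at 0.90. Probes of CCNG1, GADD45A and TP53INP1 had 1 sign, while those of BCL2L2, CASP9, FADD and SESN2 had both. APAF1, BID, CDKN1A, GADD45B and MDM4 each had 1 probe, so their values have no such check.

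**Figure D5:**
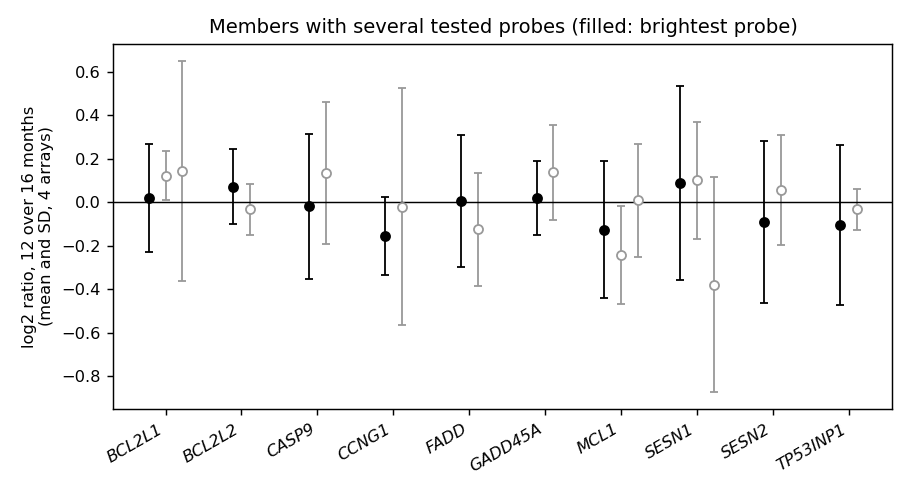
Mean log2 ratio of 12 over 16 months with its SD over 4 arrays (y axis) for each tested probe of the 10 genes with several (x axis), filled for the brightest probe and open for the others. Bars of the probes of a gene overlap, and the dimmest SESN1 probe lies lowest at -0.38.

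For these genes, arrays of the same dye orientation were more alike than arrays of opposite orientation. Across the 27 genes measured on 4 arrays, which share the arrays' dyes and hybridisations, Pearson's r of the ratios was 0.42 between arrays 1 and 2 and 0.23 between arrays 3 and 4. Between orientations it was 0.13 for arrays 1 and 3, -0.35 for 1 and 4, 0.034 for 2 and 3, and -0.025 for 2 and 4. Over all 11963 genes measured on 4 arrays the corresponding values were 0.35 and -0.082 within orientations and between -0.22 and -0.078 across them.

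The sign was that of the dye in 8 of the 27 genes, with arrays 1 and 2 on 1 side of 0 and arrays 3 and 4 on the other. These were GADD45A, SESN1, BCL2L11, BAK1, BCL2L1, DIABLO, FAS and FADD. Over all genes measured on 4 arrays the share was 18.6%. The dye coefficient was larger in size than the age coefficient in 17 of 28 genes, or 60.7%, against 56.5% of all tested genes. Among the genes with a dye coefficient above the age coefficient FAS stood at 0.30 for the dye and -0.15 for age. For SESN1 these were -0.37 and 0.089.

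A wider list of 62 genes of the same pathway held 46 that could be tested, and 0 of them had an unadjusted or adjusted p under 0.05 in limma. Of the 46, 27 had a ratio above 0 and 19 below, with a median of 0.040. CHEK2, a kinase that activates p53 after DNA breaks, had ratios of 0.23, 0.17, 0.26 and 0.39 on arrays 1 to 4. It was above background on 4 of 4 arrays with 12-month semen and on 0 with 16-month semen, so its fold rests on a floor. That floor gave a bound of 1.11-fold higher with 12-month semen, which is not a tested difference. The fitted log2 ratio had a 95% interval of -0.0027 to 0.52, which included 0 (adjusted p 0.969 in limma). CHEK2 met the brightness filter through the 12-month signals alone, so neither its sign on the arrays nor its p is independent of that filter. In that bound the dim group is put at the lowest signal that was above background on each array, or at its own where higher.

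TP53I3, a quinone oxidoreductase that p53 induces, had ratios of 0.23, 0.40, -0.033 and 0.28, with a mean of 0.22 ± 0.18 and an adjusted p of 0.969 (limma). Arrays 1, 2 and 4 were above 0 and array 3 was just below. By role, 7 of 9 other upstream genes, 8 of 15 other targets, 5 of 6 other BCL2 relatives, 1 of 4 other caspases and nucleases, 1 of 3 other inhibitors of apoptosis and 5 of 9 other death receptor genes had ratios above 0. Of all tested genes 50.4% did. The 7 upstream genes, like the 27 of 46 in all, include CHEK2, whose sign is not independent of the brightness filter.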

How the data were processed

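Per the labels' protocols, total RNA of blastocysts was amplified and labelled chemically with Cy3 or Cy5. The deposited scanner files hold, per the file headers, spot and surrounding intensity as median and mean over pixels. The submitters' processing notes name limma. The scanner software is not given in those sources. The authors' deposited value table is on a log2 scale and followed Cy5 over Cy3 of its own array (r across probes 0.986 to 0.994, slopes 0.90 to 0.93, column medians -0.016, -0.0019, -0.012 and -0.0063), so its direction is Cy5 over Cy3 on all 4 arrays and its exact background step stays unknown. It was used as an alternative only.

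From median intensities, background was corrected with normexp (offset 50) and ratios were normalised by loess within arrays, with the 1426 control spots given no weight. Ignored spots, so marked in the files (13, 10, 64 and 818 on arrays 1 to 4), were removed before normexp, because many had large negative differences to background that distort its fit. Probes entered the test if their signal minus background was above 95% of the 153 negative controls in at least 4 of 8 channel signals. Tests were run with limma 3.58.1 in R 4.3.3 (lmFit, eBayes; age and dye; two-sided; Benjamini-Hochberg over 30986 probes; threshold 0.05) and tested on simulated data. The number of arrays limits the precision. The p-values rest on the spread between these arrays, with each probe's variance drawn by eBayes towards that typical of all probes tested. No batch beyond dye orientation is known here.

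Gene symbols came from the platform annotation, updated through RefSeq names of assembly ARS-UCD2.0 where a synonym matched (of 21790 named probes, 20025 were current, 1524 updated and 241 kept); 22004 probes carried no symbol. Each gene was represented by its brightest tested probe, with probes measured on all arrays first. The members and lists were chosen with earlier results of these data known. Array values were printed for the 12 genes with the smallest p, the pore formers, the BCL2-type guards, genes whose probes differed in sign by over 0.3, and MDM2, MDM4, CDKN1A and TP53INP1, 22 genes in all. No sequence is printed.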

Additional observations from a re-analysis of the deposited data

Results flagged for a closer look

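In MDM4, the log2 ratio on array 3 was 1.09, and the other 3 arrays lay between -0.0052 and 0.16. The gap to the nearest array took 0.847 of the whole range, above the critical value of Dixon's test for 4 values. The 27 genes measured on 4 arrays were examined this way and 1 was found, while chance gives about 1 in 20. MDM4 had 1 probe, and the cause was not tested.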

How the results depend on the processing

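No alternative called any of the p53 and apoptosis genes at an adjusted p of 0.05. Over all probes the count stayed at 0 except when an array was left out, where it ran from 0 to 385. It was 44 without array 3 (34 higher, 10 lower) and 385 without array 4 (258 higher, 127 lower), and 0 without array 1 or 2. The pro-death minus pro-survival difference ran from -0.15 to 0.061 as arrays were left out, and moved by less than its SD over arrays under the other settings. With 3 arrays the age and dye terms leave 1 residual degree of freedom per probe. Of 21 genes with array values, 13 kept their sign under all 12 alternatives. Some of these could not turn a sign. Leaving out the dim-probe filter left every such ratio as it was. So did leaving out the dye coefficient for genes measured on all arrays, and the mean over probes for genes with 1 tested probe. The sign turned in the following. With the mean over pixels BAK1 was 0.013, BCL2L1 -0.065, BOK -0.15 and SESN1 -0.025. With median centring BCL2L1 was -0.0069 and BOK -0.046, and the median of all genes moved to -0.021. With the mean over all probes of a gene SESN1 was -0.063. With the ignored spots kept in the normexp fit, an alternative chosen after seeing the data, BAK1 was 0.0058, BAX 0.034 and BOK -0.039, and 1799 probes had an unadjusted p under 0.05 against 1277. Leaving out an array in turn gave ranges of -0.26 to 0.14 for BAX, -0.068 to 0.11 for BCL2L1, -0.044 to 0.093 for BOK, -0.29 to 0.0021 for FAS, -0.12 to 0.084 for MDM2 and -0.016 to 0.38 for XIAP. The cause was not tested. The ratio on each array already pairs both ages. A pairing by bull was not possible because the labels tie no bull to an array. Signal near background limits BCL2A1, CASP2 and the dimmest SESN1 probe.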
